A study of Homo sapiens with 5 samples.

Results

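CD80 and CD86 are the costimulatory ligands of antigen-presenting cells, and the DNase I accessibility around their genes was examined in 5 human B-lineage cell lines. The members are all peaks of the deposited lists that overlapped 2 windows of chromosome 3 in hg18, 120.70 to 120.80 Mb for CD80 and 123.20 to 123.40 Mb for CD86, with the CD86 gene itself at about 123.257 to 123.323 Mb. Of 109231 peaks on chromosomes 1 to 22 and X, 102 were members, 31 at CD80 and 71 at CD86. The Hodgkin group held the lines L1236, L428 and L591, the last of which is named by its title, since the growth notes of the labels give its digits in another order. The non-Hodgkin group held the Burkitt lymphoma line Namalwa and Reh, a line of pro-B lymphoblastic leukaemia. All lines were untreated, were grown in the same medium and were used at passage 7, and each gave 1 library. The DNase I concentration was 12 U/ml for L591 and Namalwa and 6 U/ml for the other lines. The windows were selected on the measured peaks of these same lists, so the values below are a description and carry no test. With 3 lines against 2, an exact permutation test could in any case not go below p = 0.1.

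CD80 and CD86 are related membrane proteins that bind the receptors CD28 and CTLA4 on T cells. Binding to CD28 gives the second signal for T cell activation, and binding to CTLA4 restrains it. Resting B cells carry little of either ligand and raise them on activation, and the malignant cells of Hodgkin lymphoma are known to carry both. DNase I cuts DNA where nucleosomes are displaced, so a peak marks accessible chromatin at a promoter, an enhancer or another regulatory site. It does not measure transcription, and no RNA was used here.

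RefSeq lists 1 promoter for CD80 and 2 for CD86, whose alternative starts lie on the plus strand. They are shown because peaks of L1236 and L591 covered the left end of the CD86 span and because both windows held more peaks in the Hodgkin lists. All 3 run 5′ to 3′ on the strand of the gene, from 250 bases before the start to 50 bases after its beginning, in build GRCh38.p14. Capitals mark matches to the motifs searched. The CD80 promoter is chr3:119559565-119559864 on the minus strand, and those of CD86 are chr3:122055112-122055411 and chr3:122077534-122077833.
CD80: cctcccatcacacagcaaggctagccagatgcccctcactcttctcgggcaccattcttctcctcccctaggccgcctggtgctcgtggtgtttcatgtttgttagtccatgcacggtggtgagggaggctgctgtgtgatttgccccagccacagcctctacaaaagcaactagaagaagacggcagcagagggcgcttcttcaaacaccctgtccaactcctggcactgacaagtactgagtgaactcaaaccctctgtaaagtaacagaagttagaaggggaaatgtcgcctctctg
CD86, first start: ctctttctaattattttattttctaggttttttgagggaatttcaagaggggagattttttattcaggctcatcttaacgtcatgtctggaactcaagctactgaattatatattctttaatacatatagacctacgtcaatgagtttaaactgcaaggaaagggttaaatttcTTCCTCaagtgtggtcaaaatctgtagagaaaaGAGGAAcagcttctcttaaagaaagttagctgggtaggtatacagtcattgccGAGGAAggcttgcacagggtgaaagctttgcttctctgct
CD86, second start: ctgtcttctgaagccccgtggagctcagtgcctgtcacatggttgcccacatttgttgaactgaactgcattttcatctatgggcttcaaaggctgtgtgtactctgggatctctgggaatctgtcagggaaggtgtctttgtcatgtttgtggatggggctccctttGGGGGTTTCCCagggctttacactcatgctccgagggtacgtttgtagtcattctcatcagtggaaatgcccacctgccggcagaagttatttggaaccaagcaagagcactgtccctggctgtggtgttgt

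The capitals in the first CD86 promoter are 3 matches to the PU.1 core GAGGAA, which begin 76 and 43 bases before the start and 10 bases after it. The capitals in the second are 2 overlapping matches to the NF-kB motif, 82 and 81 bases before the start. PU.1 is a myeloid and B cell factor, and NF-kB is constitutively active in Hodgkin cells. Over 35116 RefSeq promoters of this length, 27.9% held the PU.1 core and 11.3% the NF-kB motif on either strand. None of the 3 promoters held the AP-1 motif TGANTCA (7.71% of all promoters), the CRE motif TGACGTCA (1.85%), the interferon response motif (3.57%), the octamer ATTTGCAT (1.77%) or the EBF1 motif (1.21%). The first CD86 promoter was poor in G and C at 37.0%, a value at or above that of 7.06% of promoters, whereas that of CD80 had 54.0% and the second of CD86 51.3%. The positions of these starts in hg18 were not used here. Peaks are therefore set beside the CD86 starts only roughly, by the left end of the CD86 span, and no peak is placed on the CD80 promoter.

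The 5 lists held 23288 to 27925 peaks on these chromosomes, except that of Namalwa with 5760, and their read depth is unknown. The score of a peak is the authors' peak area, with no stated scaling between lists, so it is given as a percentile, the percentage of peaks in the same list that score no higher. The L1236 list lacks the quality-trimming mark that the other 4 carry. The labelled cell types were not checked against marker genes, because no hg18 gene annotation was used here, and receptors and other costimulatory genes were not analysed for the same reason. By the gene order of RefSeq, TIMMDC1 lies before and ADPRH after CD80, and ILDR1 before and CASR after CD86. The RefSeq model of ILDR1 overlaps that of CD86, and that of TIMMDC1 overlaps CD80. Peaks are therefore given by window, or by the approximate CD86 span, and are not assigned to a gene.

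The CD86 window was densely marked in the Hodgkin lists and empty in the others. L1236 had 36 peaks there, L428 had 14, L591 had 21, and neither Reh nor Namalwa had any. The mean over the Hodgkin lines was 23.7 peaks ± 11.2 (SD, n = 3), and the groups did not overlap. Over 9948 stretches of 200 kb with a peak in any list, 13.3% had every Hodgkin count above both non-Hodgkin counts. Covered length followed the same order, at 19080 bp in L1236, 11540 bp in L591 and 4700 bp in L428. Over all such stretches the L1236 list averaged 2.58 peaks, L428 2.35, L591 2.68, Reh 2.81 and Namalwa 0.580.

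An empty window was common in the non-Hodgkin lists. No peak of either was found in 34.7% of the 200 kb stretches, and Reh lacked a peak in 34.8% and Namalwa in 70.6%. The Reh list had no peak over 387 kb around CD86, but 63.3% of the length it spans lay in gaps at least as long. For Namalwa the gap was 549 kb, and 83.1% lay in gaps of that length or more. The Hodgkin counts were less common. Stretches with 14 or more peaks in each Hodgkin list made up 0.302% (30 of 9948), and 0.0201% (2 of 9948) also had none in Reh and Namalwa. One of those is the CD86 window itself, and the other was chromosome 8 from 129.0 to 129.2 Mb. The cut of 14 is the lowest Hodgkin count of the CD86 window itself, so these shares describe the window and do not test it. Within the lists digested at 6 U/ml the counts were 36 and 14 against 0, and at 12 U/ml 21 against 0. Among the lists with the quality-trimming mark they were 14 and 21 against 0 and 0. Copy number of chromosome 3 in these lines was not tested.

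**Figure D1:**
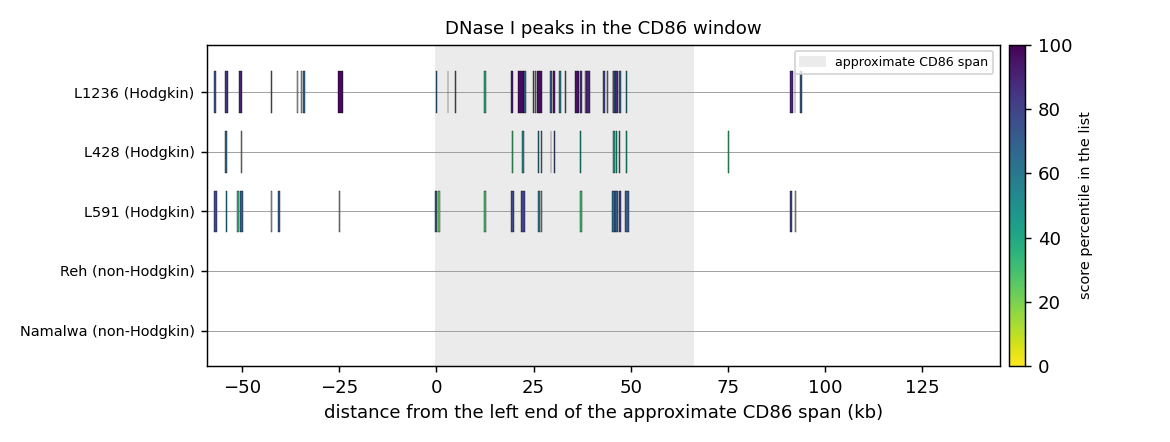
Peaks of the CD86 window in each list (rows) by distance in kb from the left end of the approximate CD86 span, which is shaded. Box width is peak width and colour is the score percentile in the list. The rows of L1236, L428 and L591 hold 36, 14 and 21 peaks, and those of Reh and Namalwa are empty.

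Overlapping peaks of the 5 lists were joined into merged regions, 37 of them in the CD86 window. Of these, 10 (27.0%) held peaks of every Hodgkin line and of no non-Hodgkin line, against 4.33% of all 59212 merged regions. All merged regions include those with a Reh or Namalwa peak, which cannot belong to this class. The CD86 window held none of those, so part of the contrast restates that both lists were empty there. Only 4 of the 9948 stretches of 200 kb (0.0402%) held 10 or more such Hodgkin-only regions, the CD86 window among them. This cut, too, is the window's own count. With L428 left out, 17 regions met the rule for the remaining lines. The approximate gene span held 8 of the 10, out of 24 regions there. The part to its left held 2 of 9, and the part to its right none of 4. The span also covered most peaks of each list, with 25 of 36 in L1236, 11 of 14 in L428 and 12 of 21 in L591.

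All 8 Hodgkin-only regions of the span lay within 30.3 kb, from 123276181 to 123306490, a stretch that was picked after its peaks had been seen. It makes up 15.2% of the window and held 21 L1236 peaks, 11 L428 peaks and 9 L591 peaks. Peaks covered 40.3% of its bases in L1236, 19.4% in L591 and 12.3% in L428. The gene span on either side of it was sparser, and no list had a peak in the span beyond its right end.

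From left to right, the first shared region of this stretch was chr3:123276181-123276960, where L1236 stood at percentile 92.2, L428 at 30.5 and L591 at 78.1. The next, chr3:123278081-123280040, was the widest of the window at 1960 bp. It reached 97.0 in L1236, 52.5 in L428 and 80.5 in L591. L1236 was highest at both, and L428 lowest.

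The region chr3:123282961-123284270 was a single peak in L1236 and was split into 2 peaks in L428 and in L591, and its percentiles were 96.2, 60.6 and 57.1 in the order L1236, L428 and L591. The shared region chr3:123293851-123294550 had 84.7 in L1236, 45.6 in L428 and 31.6 in L591. These are the members where L591 ranked below L428, together with chr3:123202631-123203400, left of the span, at 85.3 in L1236, 66.3 in L428 and 58.6 in L591.

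The right end of the stretch held the remaining 4 of its shared regions within 4.19 kb. At chr3:123302301-123303000 the percentiles were 67.9 in L1236, 45.6 in L428 and 67.2 in L591. The adjoining region chr3:123303001-123303740 had 88.5, 43.5 and 73.0 in the same order. In the last pair the order of L1236 and L591 was turned round. At chr3:123303921-123304580 L591 led with 81.4, its highest value in the window, before L1236 with 72.8 and L428 with 64.1. At chr3:123305671-123306490 the values were 71.9 in L591, 58.6 in L1236 and 41.5 in L428. The remaining Hodgkin-only region, chr3:123205721-123207120, lay left of the span at 90.8 in L1236, 27.8 in L428 and 69.9 in L591.

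The shared regions were 660 to 1960 bp wide, and part of each was common to the peaks of all 3 lines. The common part was 190 to 600 bp per region with a median of 335 bp. In the 6 regions with 1 peak per line, peak centres lay 45 to 215 bp apart. Over the 10 regions the median percentile was 86.9 in L1236, 70.9 in L591 and 45.6 in L428. Over all 2566 Hodgkin-only regions it was 64.6, 60.5 and 60.8, so that the shared CD86 regions ranked above the median of their class in L1236 and L591 and below it in L428. The order of regions differed between lists. Spearman's rho of the percentiles was 0.31 between L1236 and L591 (17 regions), 0.25 between L1236 and L428 (12 regions) and -0.11 between L428 and L591 (10 regions). These describe neighbouring regions of the same libraries.

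At the left end of the CD86 span, near 123.257 Mb, L1236 had a peak at percentile 66.1 and L591 one at 73.5, joined as chr3:123256741-123257200. L428 had no peak there. This position is where the first start of CD86 would fall, within the rounding of that span. The second start lies to the right of the first. If its distance from the first in GRCh38.p14 also holds in hg18, it would fall within chr3:123278081-123280040, a region with peaks of all 3 Hodgkin lists. Which peaks of that region cover it was not settled, since the span is rounded and no hg18 annotation was used. The highest CD86 peak of each list lay elsewhere. In L1236 it was chr3:123231641-123232820 at 97.5, left of the span, where L591 had 25.6 and L428 no peak. In L428 it was chr3:123287161-123287560 at 75.8, which overlapped an L1236 region at 93.3 and no L591 peak. In L591 it was the peak at 81.4 named above. The 3 lists thus had different leading sites. The leads were narrow in L1236 and L591, where chr3:123278081-123280040 came second at 97.0 and 80.5.

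L1236 had the most sites to itself. A peak in L1236 alone was found at 15 of the 37 regions (40.5%), against 19.8% of all merged regions. The 2 shares have unlike bases, because all merged regions include those with a Reh or Namalwa peak and this window held none of them. The share over regions without such a peak was not computed, so an excess of L1236 sites particular to this window is not shown. L591 alone had 2 regions and L428 alone had 1. L1236 and L591 shared 7 regions without L428, L1236 and L428 shared 2 without L591, and no region was shared by L428 and L591 without L1236. The 15 regions of L1236 alone ranged from percentile 1.36 to 95.9 with a median of 59.5, below the median of 84.7 at its 19 shared regions. They include chr3:123292791-123293740 at 95.9 and chr3:123295601-123296500 at 90.6, named after their values had been seen.

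Nearly all CD86 peaks of L428 and L591 thus recurred in L1236. Of the L428 peaks, 13 of 14 (92.9%) overlapped an L1236 peak and 11 of 14 (78.6%) an L591 peak, while over the whole list the shares were 43.5% and 67.4%. Of the L591 peaks, 19 of 21 (90.5%) overlapped an L1236 peak, against 40.6% over the list, and 11 of 21 (52.4%) an L428 peak, against 55.1%. In the other direction, 19 of 36 L1236 peaks (52.8%) overlapped an L591 peak and 12 of 36 (33.3%) an L428 peak, against 44.6% and 38.8% over the list. Over the whole lists L428 peaks recurred more often in L591 than in L1236, and in this window the order was turned round. Covered length was turned round as well. In the window L1236 peaks covered 19080 bp and L591 peaks 11540 bp, and over the whole lists 9897840 and 14267960 bp. The recurrence was not adjusted for covered length.

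The CD80 window held fewer peaks, and the non-Hodgkin lists were not empty there. L1236 had 10 peaks, L428 had 5, L591 had 12, Reh had 3 and Namalwa had 1. The mean was 9 ± 3.61 (SD, n = 3) in the Hodgkin lines and 2 ± 1.41 (SD, n = 2) in the others, and the groups did not overlap, as in 10.8% of 15453 stretches of 100 kb. Per 100 kb, the CD86 window had 18 peaks in L1236, 7 in L428 and 10.5 in L591. The count at CD80 was thus lower than at CD86 in L1236 and L428 and higher in L591. At 6 U/ml the CD80 counts were 10 and 5 against 3, and at 12 U/ml 12 against 1. Stretches with 5 or more peaks in each Hodgkin list, 5 being the lowest Hodgkin count of this window, made up 2.36%.

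**Figure D2:**
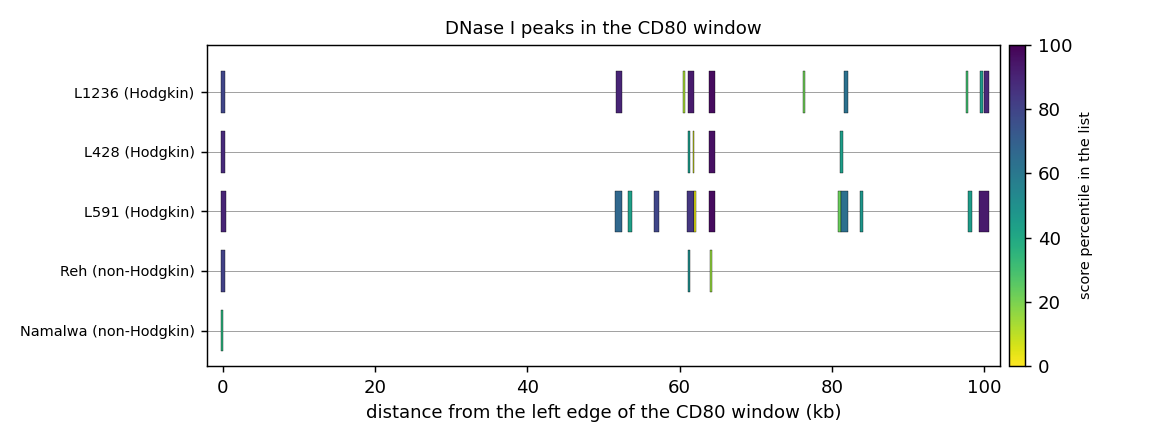
Peaks of the CD80 window in each list (rows) by distance in kb from the left edge of the window. Box width is peak width and colour is the score percentile in the list. All 5 lists share the region at the left edge, and L1236, L428, L591 and Reh share the next 2 common regions, whose centres are 61.6 and 64.2 kb from the edge.

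Sites with a peak in 3 or more lists numbered 4 of the 13 merged regions at CD80. The strongest of them in the Hodgkin lists was chr3:120763791-120764610. Its peak was the highest of the window in L1236 (percentile 97.0), L428 (95.9) and L591 (97.0), while the Reh peak there was narrow and ranked at 15.6, and Namalwa had none. The deposited scores were 33760 in L1236, 13928 in L428 and 24184 in L591. The bases common to all 4 lists numbered 210, and the peak centres lay within 120 bp. The site was therefore listed in Reh at low rank and stood near the top of each Hodgkin list.

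A neighbouring region, chr3:120761031-120762110, was shared by the same 4 lists. L1236 stood there at percentile 92.9, L591 at 84.0, Reh at 50.8 and L428 at 45.7, so that Reh ranked above L428 there. The region at the left edge, chr3:120699751-120700440, was the only member with a peak in all 5 lists. Its percentile was 89.8 for L591, 88.2 for L428, 80.6 for Reh, 79.7 for L1236 and 35.7 for Namalwa. It straddles the edge of the window, and in Reh and Namalwa it was the highest member.

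Peaks of every Hodgkin line and of no other line were found at 1 of the 13 CD80 regions (7.69%), beside the 4.33% of all merged regions, and 12.7% of the 100 kb stretches held at least 1 such region. This region, chr3:120780841-120782060, ranked at 62.8 in L1236, 44.3 in L428 and 63.3 in L591. Here the L428 peak overlapped both L591 peaks and did not reach the L1236 peak, and no base was common to all 3 lists. The count was 0 with L591 left out and 3 with L428 or with Reh left out. Of the other CD80 regions, 2 were shared by L1236 and L591, 4 had a peak in L591 alone and 3 in L1236 alone. One of those shared by L1236 and L591, chr3:120799331-120800630, crosses the right edge of the window and ranked at 88.8 and 93.2.

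**Figure D3:**
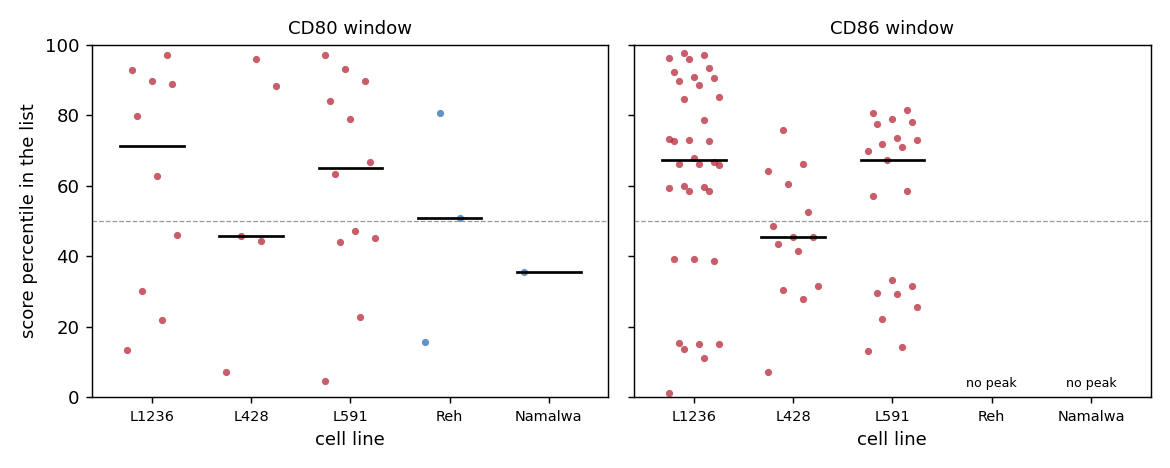
Score percentile in its list of each member peak (points, spread sideways for display) by cell line, for the CD80 window (left) and the CD86 window (right). Black bars are medians and the dashed line is percentile 50. L428 medians are 45.7 and 45.6, those of L1236 71.2 and 67.3 and those of L591 65.0 and 67.2.

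The 2 windows differed in how high their peaks ranked. At CD80 each Hodgkin list had a peak above percentile 95. At CD86 only L1236 had any at 90 or more, with 8, and the highest was 75.8 in L428 and 81.4 in L591. Medians over the members of a list were close in the 2 windows, at 71.2 (CD80) and 67.3 (CD86) in L1236, 45.7 and 45.6 in L428 and 65.0 and 67.2 in L591. L428 was lowest of the Hodgkin lists at both.

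When each list was limited to its 5760 highest-scoring peaks, the length of the Namalwa list, L1236 kept 13 of its CD86 peaks, L591 kept 3 and L428 kept 1, with Reh and Namalwa at 0. No merged region was then shared by all 3 Hodgkin lines at CD86. Keeping the upper 50% by score gave 27, 5, 13, 0 and 0 CD86 peaks in L1236, L428, L591, Reh and Namalwa, and 4 Hodgkin-only regions. At CD80 the lists of equal length kept 5 peaks each for L1236 and L591, 2 for L428 and 1 each for Reh and Namalwa. The Hodgkin-only region was then the one that starts at 120763791, since its Reh peak ranked too low to be kept. The sites shared by the Hodgkin lists thus included a peak of high rank in every list at CD80 and none at CD86.

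**Figure D4:**
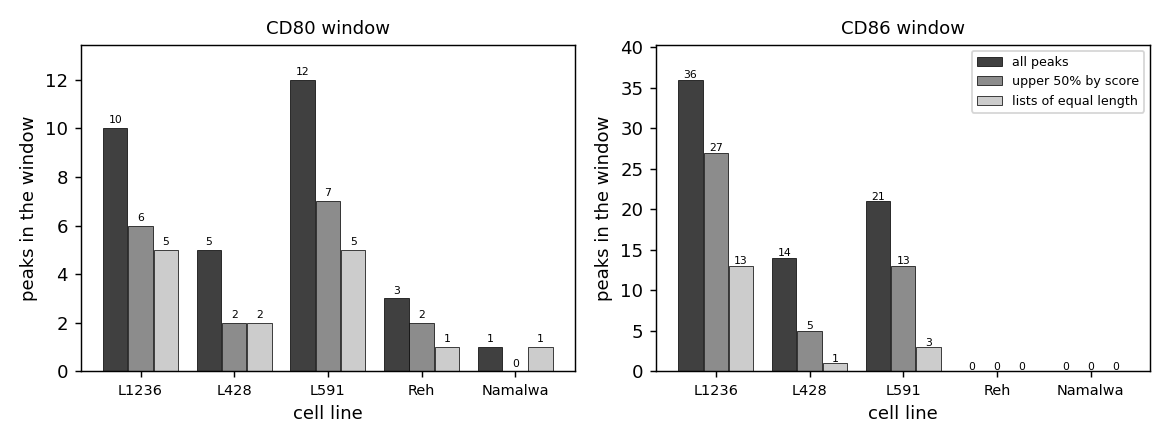
Number of peaks per cell line in the CD80 window (left) and the CD86 window (right), with all peaks, with the upper 50% of each list by score and with lists of equal length (5760 peaks). At CD86 the L428 count falls from 14 to 1 and the L591 count from 21 to 3 with lists of equal length, and Reh and Namalwa are at 0 in each setting.

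Around the CD86 window the counts of the groups overlapped. In the 500 kb to its left L1236 had 9 peaks, L428 had 4, L591 had 7, Reh had 8 and Namalwa had 2. In the 500 kb to its right the counts were 13, 7, 28, 10 and 4 in the same order, with L591 highest. Reh thus had peaks on either side, and in the 2.4 Mb between the 2 windows it had 19, against 29 in L1236, 22 in L428, 31 in L591 and 6 in Namalwa. To the right of the CD80 window the Hodgkin lists continued high. In the adjoining 100 kb L591 had 12 peaks, L1236 had 7, L428 had 5, Reh had 2 and Namalwa had 0. Unlike the 500 kb counts, these include peaks that cross the window edge, which L591 and L1236 each had there.

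**Figure D5:**
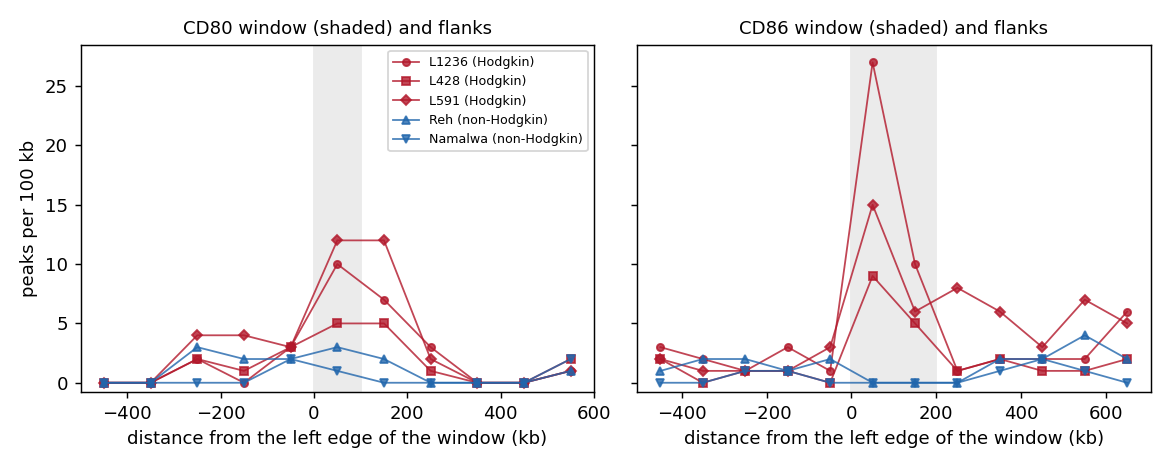
Peaks per 100 kb in each list from 500 kb before to 500 kb after the CD80 window (left) and the CD86 window (right), by distance in kb from the left edge of the window, which is shaded. Peaks that cross a step count in both. In the first 100 kb of the CD86 window L1236 reaches 27, L591 15 and L428 9, while Reh and Namalwa are at 0.

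The edges of the windows decided a few members. At CD80 the region of all 5 lists crossed the left edge, and by the position of its centre the Namalwa peak lay outside, which left Namalwa with 0. Just outside the right edge of that window were peaks of L591 at 0.841 kb, of L1236 at 1.10 kb and of L428 at 2.29 kb, with percentiles of 38.8, 27.2 and 51.9. At CD86 the nearest outside peak was one of Reh, 2.91 kb left of the edge at percentile 55.9, followed by one of L591 at 9.96 kb with percentile 28.4. Just inside that edge the region chr3:123199681-123200620 ranked at 72.7 in L1236 and 77.6 in L591. A slightly longer window would therefore have held a Reh peak.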

How the data were processed

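DNase-seq peak lists of 3 Hodgkin and 2 non-Hodgkin cell lines were used, with 1 library per line. The label for lymphoma type set the groups. The submitters' processing notes name Bowtie 1.00 and hg18, and per the file headers reads were extended to 146 bp and binned at 10 bp. The sources used here do not give the peak caller or its threshold. The deposited score of a peak is the authors' peak area, and all scores were divisible by 8. Starts and ends are 1-based.

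The windows, the region classes and the gene lists were chosen with earlier results of these data known. Peaks counted in a window if they overlapped it by at least 1 bp, and peaks of different lists were merged if they shared at least 1 bp. Regions with peaks in 3 or more lines and the highest peak of each line and window were named, as fixed with the design. Other named sites were chosen after their values had been seen. A fixed list of 20 costimulatory genes was not analysed, since it needed an hg18 annotation. Alternatives covered overlap, joining, peak width, list length, gene span and each line left out. Merging was tested on simulated lists. Motifs were searched on both strands of RefSeq promoters (GRCh38.p14). Python 3.11.15, numpy 2.4.6, scipy 1.17.1 and matplotlib 3.10.9 were used.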

Additional observations from a re-analysis of the deposited data

How the results depend on the processing

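Shorter lists and placement by peak centre can only remove peaks, so the 0 peaks of Reh and Namalwa at CD86 were fixed under these settings, and a longer window was not run. Of 72 alternative values for the peak and region counts, 45 were within 1.5 times the reported value or equal to it. With lists of equal length the CD80 counts fell to 5 in L1236, 2 in L428, 5 in L591 and 1 in Reh, and the CD86 counts to 13, 1 and 3 in L1236, L428 and L591. Merged regions then numbered 6 at CD80 and 14 at CD86, with 0 Hodgkin-only at CD86. Keeping the upper 50% by score gave 6, 2 and 7 peaks at CD80 in L1236, L428 and L591, 2 in Reh and 0 in Namalwa. L428 and Reh were thus equal at CD80 in this setting. At CD86 it gave 5 and 13 in L428 and L591. There were then 7 merged regions at CD80 and 4 Hodgkin-only regions at CD86. Fewer peaks enter these settings by construction. By peak centre Namalwa had 0 at CD80. With peaks set to 200 bp there were 20 merged regions at CD80 and 0 Hodgkin-only, and narrower peaks overlap less by construction. The gene span alone held 24 merged regions.

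With each line left out in turn, merged regions ranged from 11 to 14 at CD80 and from 24 (without L1236) to 37 at CD86. Hodgkin-only regions ranged from 0 (without L591) to 3 (without L428, and without Reh) at CD80, and from 10 to 17 (without L428) at CD86. No paired analysis was possible, because each library came from a different cell line and the labels match no lines between the groups. Counts within each DNase I concentration stand in the report. Peaks below the authors' threshold are not seen, and with depth unknown absence of a site and failure to detect it cannot be told apart, least of all in the short Namalwa list.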

Other observations

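Other stretches of the genome had counts much like those of the 2 windows. Among 15453 stretches of 100 kb, the nearest to CD80 by Euclidean distance of log2(count + 1) over the 5 lines was chromosome 2 from 70.1 to 70.2 Mb, where L1236 had 13 peaks, L428 had 5, L591 had 10, Reh had 3 and Namalwa had 1. Next came 150.4 to 150.5 Mb of chromosome 5, with counts of 9, 4, 12, 4 and 1 in that order, and then 36.0 to 36.1 Mb of chromosome 17, with 10, 8, 10, 3 and 1.

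The nearest to CD86, taken per 100 kb, was chromosome 20 from 51.7 to 51.8 Mb, with 14 peaks in L1236, 8 in L428 and 8 in L591. It was followed by 75.0 to 75.1 Mb of chromosome 14, with counts of 20, 5 and 14, and 44.9 to 45.0 Mb of chromosome 2, with 15, 8 and 7. None of these 3 had a peak in Reh or Namalwa. In none of the 6 stretches were genes assigned. Besides the CD86 window and chromosome 8 from 129.0 to 129.2 Mb, the 200 kb stretches with 10 or more Hodgkin-only regions lay at 210.8 to 211.0 Mb of chromosome 1, where there were 10 and Reh had 6 peaks, and at 138.0 to 138.2 Mb of chromosome 6, where there were 11 and Reh had 1 peak.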
